A study of Mus musculus with 12 samples.

Results

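The summits described here are points of peak accessibility that lie deep inside the longest protein-coding genes of the mouse. They came from ATAC-seq, a transposase-based assay of open chromatin, of dorsal root ganglia, the clusters of sensory neuron cell bodies and their glia beside the spinal cord. A summit was a member when it lay inside a protein-coding gene longer than 300 kb, on chromosomes 1 to 19 or X, and more than 1 kb from both ends of that gene (RefSeq gene bounds, mm10). There were 557 such genes, with a median length of 450.8 kb, and they held 11128 of the 155267 deposited summits.

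The 4 groups were Silc1-/- mice with an injured sciatic nerve, Silc1-/- mice after a sham operation, wild-type mice with an injured nerve and wild-type mice after a sham operation. Silc1 is a long noncoding RNA gene, and the injury was a crush of the sciatic nerve at mid-thigh. Each group had 3 libraries, each made from 6 lumbar ganglia, and is represented here by 1 list of summits. No source used here gives the age of the mice, the time after injury, the design of the deletion or the pooling of animals, and the purchased mice were C57black6 Ola HSD males while other strains were bred in house. Because each group has 1 list, there is no spread between libraries and no test. Every interval below is a 95% interval that covers counting error alone, and the read depth behind each list is unknown.

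Very long genes are a class of their own in neurons. Many encode proteins of the synapse, of cell adhesion and axon guidance, or ion channels and their partners, and almost all of their length is intron. Accessible sites in those introns can be enhancers or internal promoters that start shorter forms of the protein. Transcription through such a gene takes hours, and several of the genes coincide with common fragile sites, stretches of chromosome that break readily when replication is slowed.

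A set of 6 internal start sites is shown first, because they are the places inside these genes where a summit can be tied to a known sequence. They were chosen after their values had been seen, to span sites open in every list, in some lists and in a single list. Each is the RefSeq window (GRCm38.p6, the same build as mm10) from 250 bases before to 50 bases after an annotated start that lies within a longer gene, written 5′ to 3′ on the strand of the gene. Capitals mark the stretch from 5 bases before the first to 5 bases after the last list summit in the window.
Nrxn3: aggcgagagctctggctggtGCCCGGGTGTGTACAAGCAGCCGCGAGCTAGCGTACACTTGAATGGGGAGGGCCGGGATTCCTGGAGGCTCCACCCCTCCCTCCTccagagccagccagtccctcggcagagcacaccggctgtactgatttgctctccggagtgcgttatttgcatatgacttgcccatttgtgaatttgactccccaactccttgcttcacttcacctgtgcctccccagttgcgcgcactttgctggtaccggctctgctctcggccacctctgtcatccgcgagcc
Nav2: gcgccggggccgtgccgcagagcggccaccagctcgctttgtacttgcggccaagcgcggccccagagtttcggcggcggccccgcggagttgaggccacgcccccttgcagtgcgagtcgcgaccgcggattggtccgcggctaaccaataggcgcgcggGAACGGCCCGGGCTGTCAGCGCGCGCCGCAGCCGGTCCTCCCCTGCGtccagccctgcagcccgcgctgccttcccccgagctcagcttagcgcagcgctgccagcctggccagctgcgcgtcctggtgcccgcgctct
Ank2: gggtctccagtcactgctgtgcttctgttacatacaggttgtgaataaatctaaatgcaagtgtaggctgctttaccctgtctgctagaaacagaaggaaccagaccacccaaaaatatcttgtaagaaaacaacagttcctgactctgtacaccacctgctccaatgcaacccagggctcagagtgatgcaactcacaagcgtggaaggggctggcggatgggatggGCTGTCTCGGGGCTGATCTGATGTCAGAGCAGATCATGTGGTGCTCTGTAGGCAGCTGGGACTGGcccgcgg
Cdh18: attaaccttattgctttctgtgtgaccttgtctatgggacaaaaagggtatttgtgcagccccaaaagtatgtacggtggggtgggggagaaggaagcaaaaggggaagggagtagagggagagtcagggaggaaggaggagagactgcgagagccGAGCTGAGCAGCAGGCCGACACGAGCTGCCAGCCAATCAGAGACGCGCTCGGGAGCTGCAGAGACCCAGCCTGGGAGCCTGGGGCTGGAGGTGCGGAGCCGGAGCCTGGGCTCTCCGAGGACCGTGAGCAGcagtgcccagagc
Dmd: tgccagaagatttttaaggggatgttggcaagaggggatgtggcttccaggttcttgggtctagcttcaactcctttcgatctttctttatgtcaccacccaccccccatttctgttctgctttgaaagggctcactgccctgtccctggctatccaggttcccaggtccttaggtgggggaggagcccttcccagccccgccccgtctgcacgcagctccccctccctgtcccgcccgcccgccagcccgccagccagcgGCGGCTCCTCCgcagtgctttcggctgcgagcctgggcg
Kcnip4: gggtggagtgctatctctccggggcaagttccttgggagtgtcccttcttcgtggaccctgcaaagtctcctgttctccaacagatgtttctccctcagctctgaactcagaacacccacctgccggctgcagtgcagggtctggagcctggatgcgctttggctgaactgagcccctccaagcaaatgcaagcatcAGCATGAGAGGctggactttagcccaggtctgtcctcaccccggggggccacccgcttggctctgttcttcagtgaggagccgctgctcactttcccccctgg

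The Nrxn3 window (chr12:89812233-89812532, plus strand) lies 1089.8 kb into the gene for neurexin 3, a presynaptic adhesion protein, and had a summit in all 4 lists. The scores there, which are the authors' own −log10 values for a peak, were 9.17 in Silc1-/- injured, 5.47 in Silc1-/- sham, 10.7 in wild-type injured and 4.20 in wild-type sham. The Nav2 window (chr7:49245939-49246238, plus strand) lies 287 kb into a gene for a neuron navigator protein of growing axons. Its scores were 11.9 in Silc1-/- injured, 22.7 in Silc1-/- sham, 36.3 in wild-type injured and 17.1 in wild-type sham, and its 300 bases hold 42 CpG dinucleotides. The Ank2 window (chr3:127409009-127409308, minus strand) lies 91.3 kb into the gene for ankyrin B, a linker between membrane proteins and the spectrin skeleton. It too was open in every list, although it holds just 5 CpG dinucleotides.

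Open in 3 lists was the Cdh18 window (chr15:23036213-23036512, plus strand), 488 kb into a cadherin gene. The nearest wild-type sham summit lay 141853 bp away. The Dmd window (chrX:85048045-85048344, plus strand) lies 2234 kb into the gene for dystrophin, the longest of all members at 2390.4 kb. Summits lay 198 bp from that start in Silc1-/- sham and 16 bp from it in wild-type injured, while the nearest summits of the other 2 lists lay 198454 bp away in Silc1-/- injured and 202125 bp away in wild-type sham. The Silc1-/- sham summit lay beyond the end of the printed window, so the capitals mark the wild-type injured summit alone. The Kcnip4 window (chr5:48599633-48599932, minus strand) lies 925 kb into the gene for a protein that binds A-type potassium channels. A summit was found there in the Silc1-/- sham list alone, with a score of 2.42.

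Such starts account for a small part of the members. RefSeq places 292 starts inside 189 of the very long genes, and a summit within 500 bp marked 59 of them in Silc1-/- injured, 86 in Silc1-/- sham, 76 in wild-type injured and 60 in wild-type sham. There were 37 starts, in 33 genes, that were open in all 4 lists, 71 that were open in 1 to 3 lists and 184 that were open in none. Some of the starts open in all 4 lists lie close to the gene's own start. Those in Ank2, Kcnh1 and Gphn include ones 1.23, 1.63 and 9.33 kb from it. Summits within 500 bp of an internal start made up 2.13% of members in Silc1-/- injured, 2.05% in Silc1-/- sham, 2.63% in wild-type injured and 4.08% in wild-type sham.

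The sequence of the start windows differed with how often they were open. The median number of CpG dinucleotides per 300-base window was 20 for internal starts open in all 4 lists, 12 for those open in 1 to 3 lists and 6 for those open in none, against 7 over all 32851 windows of the table. The GC box GGGCGG, searched on both strands, was present in 51.4% of the windows open in all 4 lists, in 46.5% of those open in 1 to 3 lists and in 21.2% of those open in none, against 35.7% of all windows. Of the other motifs searched on both strands, CCAAT was in 45.9%, 28.2% and 35.3% of the same classes in that order and in 37.4% of all windows. The AP-1 motif TGANTCA was in 10.8%, 5.63% and 8.15% of them and in 7.81% of all windows. The CRE motif TGACGTCA, the ETS motif CCGGAAG, the TATA box TATAAA and the NRF1 motif were also searched, and no motif of the set contains another. The own starts of the very long genes resembled the internal starts that were open everywhere, with a median of 19 CpG dinucleotides over 347 windows. Some of those internal starts lie close to an own start, so the classes are not wholly separate places.

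Genotype went with a larger share of the list inside very long genes. Members made up 7.35% of the Silc1-/- injured list (7.09 to 7.63), which is 2634 of 35815 summits, and 8.79% of the Silc1-/- sham list (8.54 to 9.05), which is 4250 of 48332. In wild type they made up 6.50% of the injured list (6.27 to 6.73), which is 2848 of 43841 summits, and 5.12% of the sham list (4.86 to 5.39), which is 1396 of 27279. The 4 intervals do not overlap, and both Silc1-/- lists lie above both wild-type lists. A different mix of cells in the ganglia and a different accessibility within the same cells cannot be told apart in these bulk lists.

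Scaled to list length, the sham lists differed by 1.72-fold (1.62 to 1.82) in Silc1-/- over wild type and the injured lists by 1.13-fold (1.08 to 1.19). The ratio of injured over sham was 0.836 (0.798 to 0.876) in Silc1-/- and 1.27 (1.19 to 1.35) in wild type, so that the injury difference ran in opposite directions in the 2 genotypes. Summits outside coding genes moved much less. Their ratio of Silc1-/- over wild type was 1.15 in sham and 1.05 in injured ganglia, and that of injured over sham was 1.02 in Silc1-/- and 1.12 in wild type. The injury ratios were not particular to very long genes. Inside genes of 100 to 300 kb, injured over sham was 0.861 (0.828 to 0.895) in Silc1-/- and 1.32 (1.26 to 1.38) in wild type. Inside genes of 20 to 100 kb these were 0.904 and 1.18.

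The lists differed in length and in how much of them sat at gene ends, so both were held fixed in turn. Summits within 1 kb of a coding gene end took up 29.3% of the Silc1-/- injured list, 25.5% of the Silc1-/- sham list, 28.5% of the wild-type injured list and 38.8% of the wild-type sham list. Over the remaining summits the ratio of Silc1-/- over wild type was 1.41 (1.33 to 1.50) in sham and 1.14 (1.09 to 1.20) in injured ganglia. With the 27279 highest-scoring summits of each list, members numbered 1776 in Silc1-/- injured, 1853 in Silc1-/- sham, 1346 in wild-type injured and 1396 in wild-type sham. The lowest score kept was 3.09 in Silc1-/- injured, 4.29 in Silc1-/- sham, 4.49 in wild-type injured and 1.31 in wild-type sham. Equal length was therefore not an equal score floor, and the wild-type sham list was kept whole. The ratio of Silc1-/- over wild type was then 1.33 (1.24 to 1.42) in sham and 1.32 (1.23 to 1.41) in injured ganglia. At that length the ratio of injured over sham was 0.958 (0.900 to 1.02) in Silc1-/- and 0.964 (0.896 to 1.04) in wild type, both with intervals that include 1. At that cut the genotype difference was of about the same size in both treatments. At shorter cuts, given below, it was not.

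Members were weaker peaks than the rest of their lists. Their median score was 3.73 in Silc1-/- injured, 3.74 in Silc1-/- sham, 4.12 in wild-type injured and 4.60 in wild-type sham, whereas the remaining summits had medians of 5.01, 4.97, 5.92 and 6.33 in the same order. Summits outside coding genes had medians of 4.32, 4.29, 4.49 and 4.89, closer to those of the members, and gene-end summits had 7.70, 10.1, 14.3 and 11.2. Scores vary with depth, so their size is not compared between lists. The share inside very long genes grew down each list from the first 10000 summits on. Among the 10000 highest-scoring summits it was 4.49% in Silc1-/- injured, 3.33% in Silc1-/- sham, 2.47% in wild-type injured and 2.81% in wild-type sham. Among the top 2500 it was 5.56% (4.73 to 6.53) in Silc1-/- injured, 3.40% (2.76 to 4.18) in Silc1-/- sham, 2.12% (1.62 to 2.76) in wild-type injured and 2.64% (2.08 to 3.34) in wild-type sham. The Silc1-/- injured list stood apart from the others at the top and was passed by the Silc1-/- sham list at 25000 summits. At 10000 summits the ratio of Silc1-/- over wild type was 1.82 (1.56 to 2.12) in injured and 1.19 (1.01 to 1.39) in sham ganglia, and at 5000 it was 2.33 (1.84 to 2.95) and 1.07 (0.845 to 1.35). The ratio of injured over sham at 10000 summits was 1.35 (1.17 to 1.55) in Silc1-/- and 0.879 (0.743 to 1.04) in wild type, and at 5000 it was 1.61 (1.31 to 1.99) and 0.740 (0.571 to 0.960). At these 2 rank cuts the injury ratios lay on opposite sides of 1 in the 2 genotypes, each the reverse of the full lists. The wild-type interval at 10000 includes 1, as it did at 2500, with a ratio of 0.803 (0.562 to 1.15). Cut by score instead, at scores of at least 10, injured over sham was 1.22 in Silc1-/- and 1.13 in wild type, both above 1. The opposite directions among strong summits thus depended on cutting by rank.

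**Figure D1:**
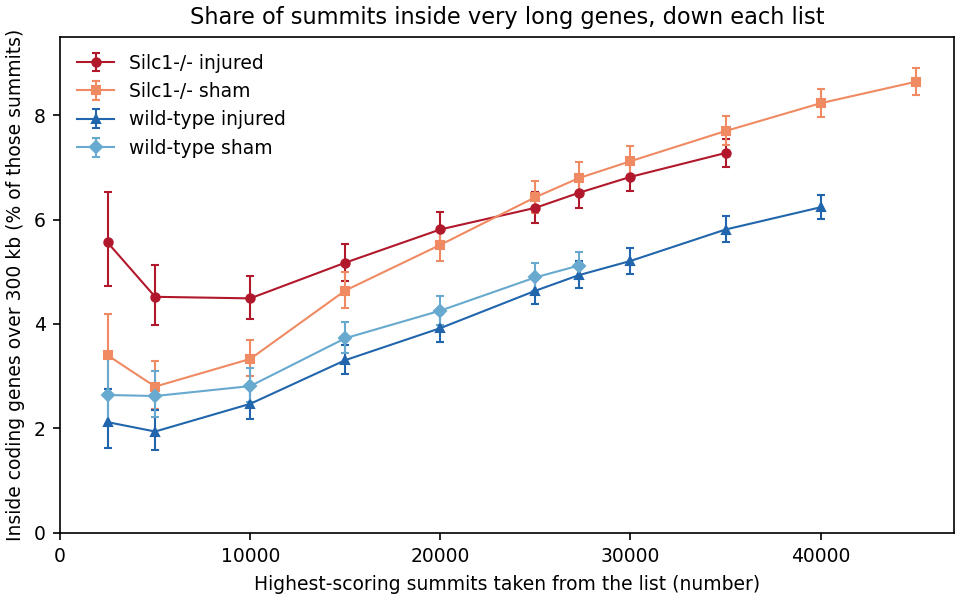
Share of summits inside coding genes over 300 kb (y axis, percent) among the highest-scoring summits of each list (x axis, number taken), with 95% Wilson intervals, for Silc1-/- injured, Silc1-/- sham, wild-type injured and wild-type sham. At 27279 summits the Silc1-/- lists stand at 6.51% (injured) and 6.79% (sham) and the wild-type lists at 4.93% (injured) and 5.12% (sham).

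The genotype difference grew with the length of the gene at equal list length. The ratio of Silc1-/- over wild type in sham ganglia was 1.02 inside genes of 20 to 100 kb, 1.17 at 100 to 300 kb, 1.23 at 300 to 500 kb, 1.40 at 500 to 1000 kb and 1.51 (1.28 to 1.78) in genes over 1000 kb. In injured ganglia it was 0.897, 1.03, 1.20, 1.39 and 1.57 (1.32 to 1.87) over the same classes. The 2 treatments gave the same order at this length, each from 1 list per group and with the unequal score floors given above. As deposited, the ratios in sham ganglia ran from 1.14 in the shortest of these classes to 1.88 in the longest. Those in injured ganglia as deposited were 0.872, 0.930, 1.07, 1.22 and 1.17, below 1 in the 2 shorter classes and no higher in the longest class than in the one before it. The threshold of 300 kb marks no step: genes of 250 to 300 kb (165 genes) gave a ratio in sham ganglia of 1.71 (1.50 to 1.96) and genes of 300 to 350 kb (122 genes) one of 1.40 (1.21 to 1.62), while in injured ganglia these were 0.991 (0.883 to 1.11) and 0.927 (0.813 to 1.06).

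For injury the picture at equal length differed between the genotypes. In Silc1-/- ganglia the ratio of injured over sham was 0.968, 0.972, 0.965, 0.971 and 0.920 (0.792 to 1.07) over the same 5 classes. In wild-type ganglia it was 1.10 (1.05 to 1.15) and 1.11 (1.05 to 1.17) in the 2 shorter classes and 0.983, 0.975 and 0.884 (0.734 to 1.07) in the 3 longer ones. The wild-type ratio was thus lower in the 3 longer classes than in the 2 shorter ones.

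**Figure D2:**
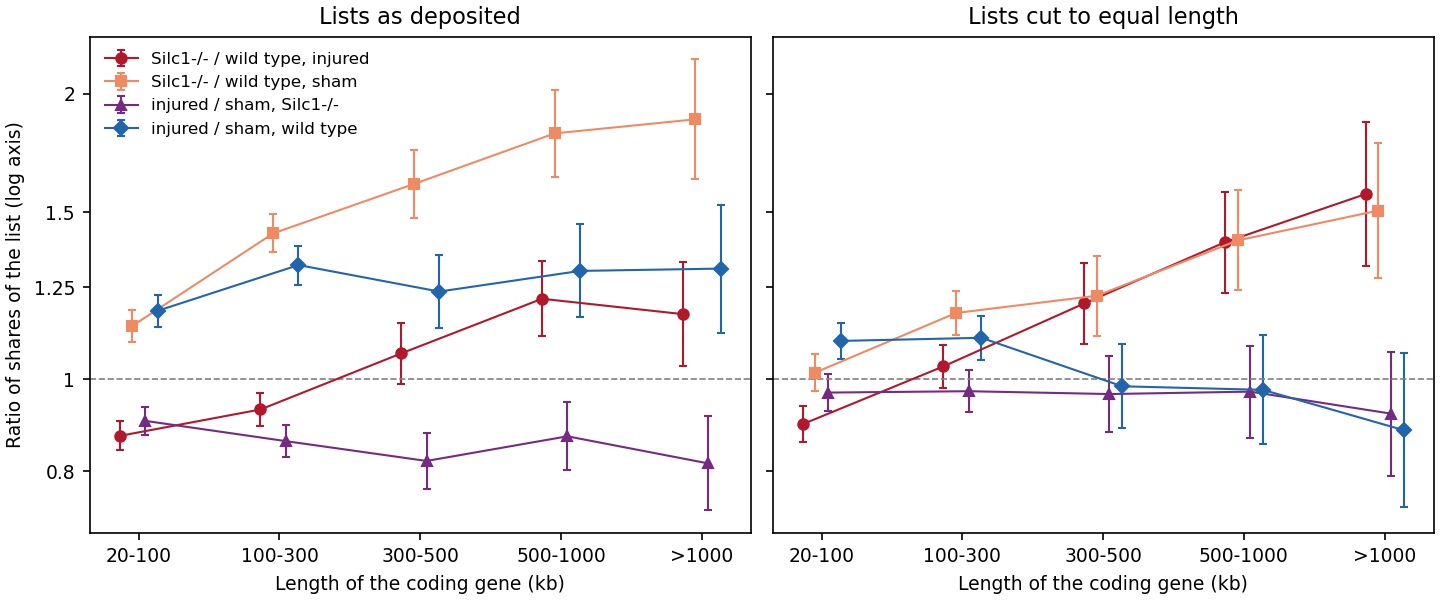
Ratio of list shares (y axis, log scale) by length class of the coding gene (x axis, kb) for Silc1-/- over wild type in injured and in sham ganglia and for injured over sham in Silc1-/- and in wild type, with 95% intervals, for the lists as deposited (left) and cut to equal length (right). On the right, both genotype ratios climb with gene length to 1.57 (injured) and 1.51 (sham) in genes over 1000 kb, while the wild-type injury ratio is 1.10 and 1.11 in the 2 shorter classes and 0.884 in the longest, and the Silc1-/- injury ratio lies between 0.920 and 0.972.

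Summits were sparse in these introns in every list. Scaled to the mean list length, very long genes held 9.05 summits per Mb in Silc1-/- injured, 10.8 in Silc1-/- sham, 7.99 in wild-type injured and 6.30 in wild-type sham, against 15.6, 17.2, 17.9 and 15.1 in genes of 20 to 100 kb. In genes over 1000 kb the values were 6.41, 7.86, 5.47 and 4.18. Outside coding genes they were 9.42 in Silc1-/- injured, 9.26 in Silc1-/- sham, 8.99 in wild-type injured and 8.02 in wild-type sham. The very long genes of Silc1-/- sham ganglia therefore stood above the sequence outside genes, and those of wild-type sham ganglia below it.

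Along the genes, the first stretch was the densest and was alike in all lists. In the 425 genes with a known strand, the interval from 1 to 10 kb after the start held 19.3 scaled summits per Mb in Silc1-/- injured, 19.3 in Silc1-/- sham, 17.6 in wild-type injured and 19.3 in wild-type sham. From 10 to 50 kb it held 8.03 in Silc1-/- injured, 9.64 in Silc1-/- sham, 8.07 in wild-type injured and 5.78 in wild-type sham, and from 300 kb on it held 8.31, 10.6, 7.59 and 5.92. The spread between lists lay in the body of the genes and not in the stretch next to the promoter, where each list had 52 to 92 summits.

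The same contrast appeared at the internal starts described above, some of which lie in that first stretch. Within 500 bp of one, the ratio of Silc1-/- over wild type was 0.861 (0.617 to 1.20) in sham and 0.914 (0.647 to 1.29) in injured ganglia. For the members elsewhere it was 1.75 (1.65 to 1.86) in sham and 1.14 (1.08 to 1.20) in injured ganglia. In sham ganglia the 2 intervals do not overlap, whereas in injured ganglia they do. Near starts, the ratio of injured over sham was 0.869 (0.621 to 1.21) in Silc1-/- and 0.819 (0.580 to 1.15) in wild type.

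**Figure D3:**
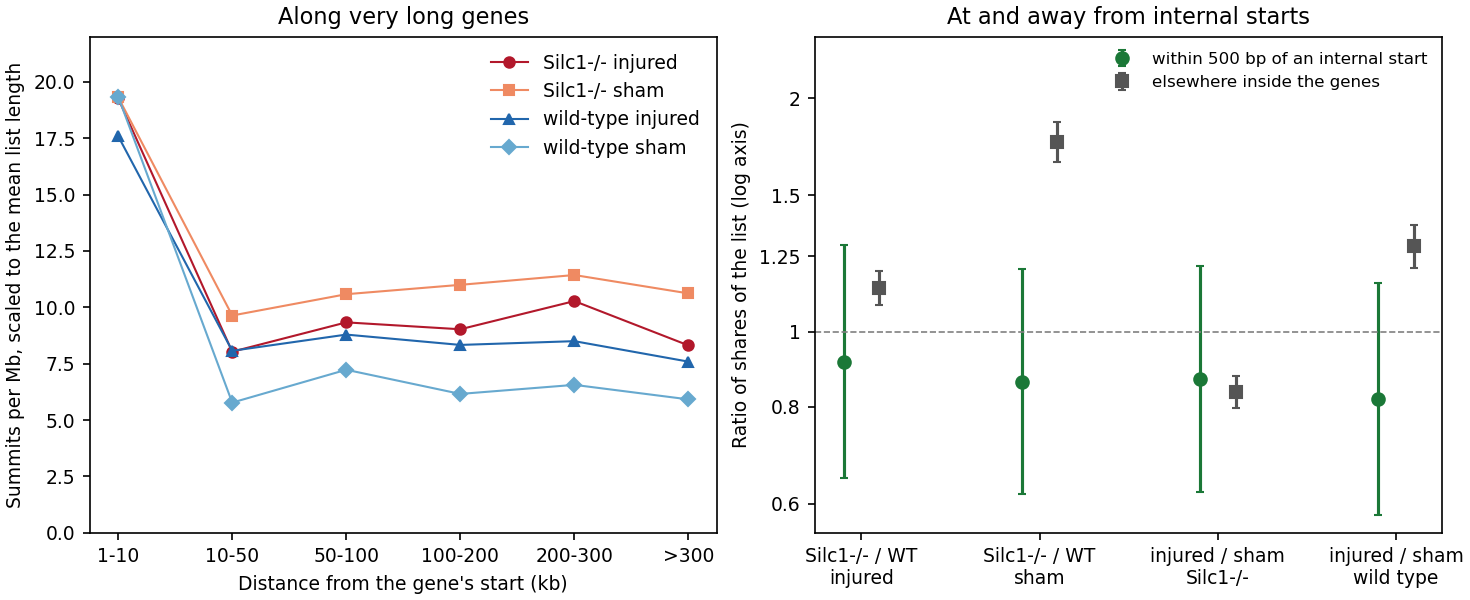
Left, summits per Mb scaled to the mean list length (y axis) by distance from the start of the very long gene (x axis, kb) for the 4 lists; right, ratio of list shares (y axis, log scale) with 95% intervals for members within 500 bp of an internal start and for members elsewhere, in the 4 comparisons. The lists coincide at 1 to 10 kb, between 17.6 and 19.3 summits per Mb, and separate beyond it.

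Genes with an open promoter held more summits per Mb inside, and were shorter. A summit lay within 1 kb of the gene's own start in 208 of the 425 genes in Silc1-/- injured, 235 in Silc1-/- sham, 227 in wild-type injured and 183 in wild-type sham, and within 1 kb of its far end in 6, 8, 5 and 4. The 157 genes whose start had a summit in all 4 lists had a median of 41.7 summits per Mb over the 4 lists, the 117 with a start open in 1 to 3 lists had 32.6, and the 151 whose start was open in none had 25.9. Their median lengths were 413, 463 and 505 kb in the same order, and since density was lower in longer genes, the part of length in this order was not tested. The ratio of Silc1-/- over wild type in sham ganglia was 1.88 for genes with a start open in every list and 1.47 for genes with a start open in none. In injured ganglia these were 1.01 and 1.17, so the order was not the same in both treatments.

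Counted gene by gene, 521 of the 557 genes had a member in Silc1-/- injured, 539 in Silc1-/- sham, 528 in wild-type injured and 452 in wild-type sham. There were 442 genes with a member in every list and 9 with none in any. The count for a gene was small, with a median of 4 in Silc1-/- injured, 6 in Silc1-/- sham, 4 in wild-type injured and 2 in wild-type sham, so most single-gene ratios are imprecise. Members were spread widely: the 10 richest genes held 5.84% of them, and without those 10 the ratio of Silc1-/- over wild type in sham ganglia was 1.72, the same as with them.

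A gene was counted as higher or lower when its scaled count differed at least 2-fold between 2 lists, with a pseudocount of 1, among genes with 4 or more summits in that pair. Of the 473 very long genes measured in sham ganglia, 180 were higher and 7 lower in Silc1-/- than in wild type, which is 38.1% and 1.48%. Over all coding genes longer than 10 kb the shares were 21.2% higher and 5.31% lower. In injured ganglia 57 were higher and 27 lower in Silc1-/- among 476 measured (11.97% and 5.67%), against 8.18% and 9.3% of all coding genes. The median log2 ratio was 0.77 in sham and 0.22 in injured ganglia, and 0.13 and -0.10 in the shorter coding genes. At equal list length the counts were 96 higher and 30 lower in sham ganglia (26.2% and 8.20%), against 17.7% and 10.4% of all coding genes, and 82 higher and 21 lower in injured ganglia (23.0% and 5.90%), against 12.7% and 13.9%. Of the 448 genes measured in both treatments, 24 (5.36%) were at least 2-fold higher in Silc1-/- in both, against 2.66% of all coding genes. The log2 ratio of Silc1-/- over wild type was above 0 in both for 219 and below 0 in both for 48. Those signs were not counted over all coding genes.

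For injury, 20 very long genes were higher and 58 lower in injured than in sham Silc1-/- ganglia among 501 measured, against 5.79% higher and 11.3% lower of all coding genes. The members' shares were 3.99% and 11.6%, near that background. In wild type 82 were higher and 10 lower after injury among 412 measured (19.9% and 2.43%), against 12.8% and 2.3% of all coding genes. At equal list length these counts were 34 higher and 45 lower in Silc1-/-, against 8.42% and 11.4% of all coding genes, and 34 higher and 32 lower in wild type, against 12% and 9.14%. The members' shares, 8.52% and 11.3% in Silc1-/- and 10.8% and 10.2% in wild type, were near that background. Scaled to the summits off gene ends they were 22 and 38 in Silc1-/-, against 5.9% and 6.36% of all coding genes, and 65 and 23 in wild type, against 11.7% and 6.36%. Scaled to the summits at gene ends they were 14 and 79 in Silc1-/-, against 4.32% and 13.6%. Opposite 2-fold differences were few: 8 of 404 genes (1.98%) for injury in the 2 genotypes, against 2.32% of all coding genes, and 5 of 448 (1.12%) for genotype in the 2 treatments, against 1.54%. The median log2 ratio of all very long genes in the comparison of sham lists was 0.32 at equal length, 0.53 with scaling to summits off gene ends and 1.18 with scaling to summits at gene ends.

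The difference between genotypes was found on nearly every chromosome. In sham ganglia the ratio of Silc1-/- over wild type was above 1 on 19 of 20 chromosomes, from 1.35 on chromosome 14 to 2.84 on chromosome 11, and the exception was X at 0.862. In injured ganglia it was above 1 on 18 of 20, with X the highest at 1.48. Members on X numbered 64 in Silc1-/- injured, 55 in Silc1-/- sham, 53 in wild-type injured and 36 in wild-type sham. The X share of the whole list also varied, at 3.52% in Silc1-/- injured, 2.71% in Silc1-/- sham, 3.01% in wild-type injured and 3.57% in wild-type sham, and it moves with the X ratios. As a share of the X summits, members were 4.20% in Silc1-/- sham and 3.70% in wild-type sham, a ratio of 1.14 (0.754 to 1.72), and 5.08% in Silc1-/- injured and 4.02% in wild-type injured, a ratio of 1.27 (0.887 to 1.81). Scaled to its own summits, X had a ratio above 1 in both treatments, but both intervals include 1. The other chromosomes were scaled to whole lists, so these X ratios cannot be set beside theirs.

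The genes were also grouped into 9 hand-made classes, which are partial lists and together leave 319 of the 557 genes in no class. Class names are approximate. The growth factor class includes the intracellular proteins of Fgf12, Fgf13 and Fgf14, and the channel and receptor class includes the vesicle release genes Rims1, Rims2 and Unc13c. The shares of class genes called are to be read against the 38.1% higher and 1.48% lower among all very long genes in sham ganglia and the 11.97% and 5.67% in injured ganglia. Adhesion and synapse genes formed the largest class, with 55 members. Of the 50 measured in sham ganglia 24 (48.0%) were higher and 2 lower in Silc1-/- than in wild type, and the summed ratio was 2.01 (1.68 to 2.42), against 1.72 over all very long genes. In injured ganglia 4 of 51 (7.84%, below the share of all very long genes) were higher and 0 lower, with a summed ratio of 1.30 (1.12 to 1.52). Cntnap2, which encodes a neurexin-like protein that places potassium channels beside the node of Ranvier, had the most summits of all members. It held 22 in Silc1-/- injured, 29 in Silc1-/- sham, 18 in wild-type injured and 11 in wild-type sham. Both Silc1-/- lists were the higher ones, but the sham ratio of 1.49 has an exact interval from 0.722 to 3.30.

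Csmd1, a complement regulator on neurons, had 14 summits in Silc1-/- injured, 27 in Silc1-/- sham, 12 in wild-type injured and 4 in wild-type sham. Its ratio of Silc1-/- over wild type was 3.81 in sham ganglia (1.33 to 15.0) and 1.43 in injured ganglia (0.613 to 3.38). Lsamp, which encodes a surface protein of growing limbic neurons, and Ptprd, a receptor phosphatase that organises synapses, had the same order of lists. Lsamp had 13, 20, 8 and 4 summits in Silc1-/- injured, Silc1-/- sham, wild-type injured and wild-type sham. Ptprd had 10, 17, 8 and 3 in the same lists. Their sham ratios of 2.82 (0.945 to 11.4) for Lsamp and 3.20 (0.925 to 17.0) for Ptprd do not exclude equal shares. Pcdh11x, a protocadherin gene on X, had 6 summits in Silc1-/- injured and 0 in each of the other 3 lists. With wild-type injured set at a floor of 3 counts its ratio is 2.45. That value leaves out the counting error of the 6 and is not a lower limit.

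The axon guidance class listed 16 genes, of which 5 of 14 measured (35.7%, near the share of all very long genes) were higher and 0 lower in Silc1-/- sham, with a summed ratio of 2.17 (1.40 to 3.48), and 3 of 15 were higher and 0 lower in Silc1-/- injured. Robo2, a receptor for the repellent Slit, had 8 summits in Silc1-/- injured, 24 in Silc1-/- sham, 13 in wild-type injured and 4 in wild-type sham. The Silc1-/- sham list, which is also the longest, held the most, and its ratio to wild-type sham was 3.39 (1.16 to 13.4). Sema6d, a transmembrane semaphorin gene, had 6, 9, 3 and 3 summits in Silc1-/- injured, Silc1-/- sham, wild-type injured and wild-type sham. Epha6, an ephrin receptor gene, had 5, 10, 7 and 2 in those lists.

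The class of ion channels and neurotransmitter receptors listed 49 genes. In sham ganglia 17 of 42 (40.5%, near the share of all very long genes) were higher and 1 lower in Silc1-/-, with a summed ratio of 1.84 (1.49 to 2.28), and in injured ganglia 10 of 42 (23.8%) were higher and 2 lower, with a summed ratio of 1.35 (1.11 to 1.65). Kcnip4, whose internal start is shown above, had 8 summits in Silc1-/- injured, 27 in Silc1-/- sham, 5 in wild-type injured and 2 in wild-type sham. That is 7.62-fold more in Silc1-/- sham, against wild-type sham (1.91 to 66.1), and 0.400 of the Silc1-/- sham share in Silc1-/- injured (0.157 to 0.905). Grm7, a presynaptic glutamate receptor, had 4, 13, 1 and 0 summits in Silc1-/- injured, Silc1-/- sham, wild-type injured and wild-type sham. With wild-type sham set at the floor of 3 counts, the ratio of Silc1-/- sham to it is 2.45, again not a lower limit. Dpp10, a partner of A-type potassium channels, had 4, 9, 0 and 1 summits in the same lists.

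Not every channel gene had this order. Nalcn, which encodes the sodium leak channel that sets resting excitability, was among the few genes that were lower in Silc1-/- sham. It had 5 summits in Silc1-/- injured, 5 in Silc1-/- sham, 5 in wild-type injured and 10 in wild-type sham. The wild-type sham list stands alone, with a ratio of Silc1-/- over wild type of 0.282 (0.0757 to 0.906) in sham ganglia and 1.22 (0.282 to 5.32) in injured ganglia. Cacna1c, an L-type calcium channel gene, had 12 summits in Silc1-/- injured, 15 in Silc1-/- sham, 5 in wild-type injured and 9 in wild-type sham. Its ratio of 2.94 in injured ganglia has an interval from 0.963 to 10.6.

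Signalling enzymes, with 27 genes listed, gave different values in the 2 treatments. In sham ganglia 9 of 25 (36.0%, near the share of all very long genes) were higher and 0 lower in Silc1-/-, with a summed ratio of 1.92 (1.48 to 2.52). In injured ganglia the summed ratio was 0.887 (0.712 to 1.10), and at equal list length it was 1.11. Pde4d, a phosphodiesterase that breaks down cyclic AMP, had 8 summits in Silc1-/- injured, 18 in Silc1-/- sham, 29 in wild-type injured and 7 in wild-type sham. The wild-type injured count was the highest of any gene in that list, at 2.58 times the wild-type sham share (1.10 to 6.97), and the Silc1-/- injured share was 0.338 of the wild-type injured one (0.133 to 0.757). Prkg1, a cyclic GMP kinase of pain-sensing neurons, had 6, 24, 14 and 3 summits in Silc1-/- injured, Silc1-/- sham, wild-type injured and wild-type sham. Its ratio of injured over sham was 0.337 (0.113 to 0.847) in Silc1-/- and 2.90 (0.810 to 15.8) in wild type.

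RNA-binding proteins and splicing factors were few, at 7, but had the highest summed ratio of the 9 classes in sham ganglia, 3.08 (1.90 to 5.23), with 4 of 7 (57.1%) higher and 0 lower. The class held 109 summits in Silc1-/- sham and 20 in wild-type sham. Rbfox1, a splicing regulator of neuronal exons, had 15 summits in Silc1-/- injured, 33 in Silc1-/- sham, 12 in wild-type injured and 1 in wild-type sham. The lone wild-type sham summit sets it apart, with 18.6-fold more in Silc1-/- sham (3.12 to 758), whereas the injured lists differed by 1.53-fold (0.669 to 3.58). Rbms3 had 11, 28, 15 and 9 summits in Silc1-/- injured, Silc1-/- sham, wild-type injured and wild-type sham, and Celf2, a splicing factor, had 11, 17, 8 and 4.

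The class of transcription and chromatin factors listed 35 genes. In sham ganglia 9 of 30 (30.0%, below the share of all very long genes) were higher and 0 lower in Silc1-/-, with a summed ratio of 1.49 (1.20 to 1.86), below that of all very long genes. Auts2, a chromatin regulator of neurons, had 13 summits in Silc1-/- injured, 28 in Silc1-/- sham, 14 in wild-type injured and 9 in wild-type sham. Nfia, a factor of glial development, had 12, 15, 16 and 14 summits in the same order. Scaled to the mean list length these were 13.0 in Silc1-/- injured, 12.05 in Silc1-/- sham, 14.2 in wild-type injured and 19.9 in wild-type sham, and the sham ratio was 0.605 (0.272 to 1.35). Ebf1, a factor of B cells and of early neurons, had 5 in Silc1-/- injured, 14 in Silc1-/- sham, 1 in wild-type injured and 0 in wild-type sham. With wild-type sham set at the floor of 3 counts, the ratio of Silc1-/- sham to it is 2.63, not a lower limit. The 7 genes of a B cell marker list had 12 summits within 10 kb in Silc1-/- injured, 21 in Silc1-/- sham, 9 in wild-type injured and 5 in wild-type sham. Those totals include the summits of Ebf1 itself, so they are no separate measure of B cells beside it. The part of B cells in the Ebf1 counts was not tested.

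Cytoskeletal, membrane linker and matrix genes (28) had a summed sham ratio of 1.43 (1.11 to 1.85), with 9 of 22 (40.9%, near the share of all very long genes) higher and 0 lower in Silc1-/-, and an injured ratio of 1.20 (0.965 to 1.50). Ank2 had 20 summits in Silc1-/- injured, 22 in Silc1-/- sham, 17 in wild-type injured and 11 in wild-type sham, with a sham ratio of 1.13 (0.525 to 2.58). Dmd, despite its length, had 12 in Silc1-/- injured, 9 in Silc1-/- sham, 9 in wild-type injured and 7 in wild-type sham, and a sham ratio of 0.726 (0.240 to 2.29).

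Growth factor ligands and receptors (11) had 1 of 9 genes (11.1%) higher and 0 lower in Silc1-/- sham, with a summed ratio of 1.53 (0.969 to 2.47). Nrg1, the neuregulin that instructs Schwann cells to myelinate, had 9, 13, 10 and 5 summits in Silc1-/- injured, Silc1-/- sham, wild-type injured and wild-type sham, a sham ratio of 1.47 (0.491 to 5.26). The 16 genes of common fragile sites, all measured, had 6 (37.5%, near the share of all very long genes) higher and 1 lower in sham ganglia and a summed ratio of 1.58 (1.18 to 2.15). In injured ganglia that ratio was 1.05 (0.808 to 1.37). Fhit, which lies across a well-known fragile site, had 12, 19, 11 and 6 summits in the 4 lists in the same order. In sham ganglia every one of the 9 classes had a summed ratio of Silc1-/- over wild type above 1 as deposited, at equal list length and under both gene-end scalings. In injured ganglia the same held for every class other than signalling enzymes.

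Most very long genes, 319 of 557, belonged to no class, and 97 of the 264 measured in sham ganglia (36.7%) were higher in Silc1-/-. Gse1 was the densest, with 9 summits in Silc1-/- injured, 20 in Silc1-/- sham, 25 in wild-type injured and 12 in wild-type sham within a gene of 352883 bp, and its ratio of Silc1-/- over wild type in injured ganglia was 0.441 (0.181 to 0.976). Vps13d, a lipid transfer protein gene, had the wild-type lists higher, with 6, 13, 18 and 13 summits in Silc1-/- injured, Silc1-/- sham, wild-type injured and wild-type sham. Ncald, a neuronal calcium sensor gene, had 9 in Silc1-/- injured, 5 in Silc1-/- sham, 1 in wild-type injured and 2 in wild-type sham, which is 11.01-fold more in Silc1-/- injured than in wild-type injured (1.53 to 483). The 5 longest of the 9 genes without a summit in any list were Diaph2, Slc25a21, Pdgfd, Hydin and Gpc3.

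**Figure D4:**
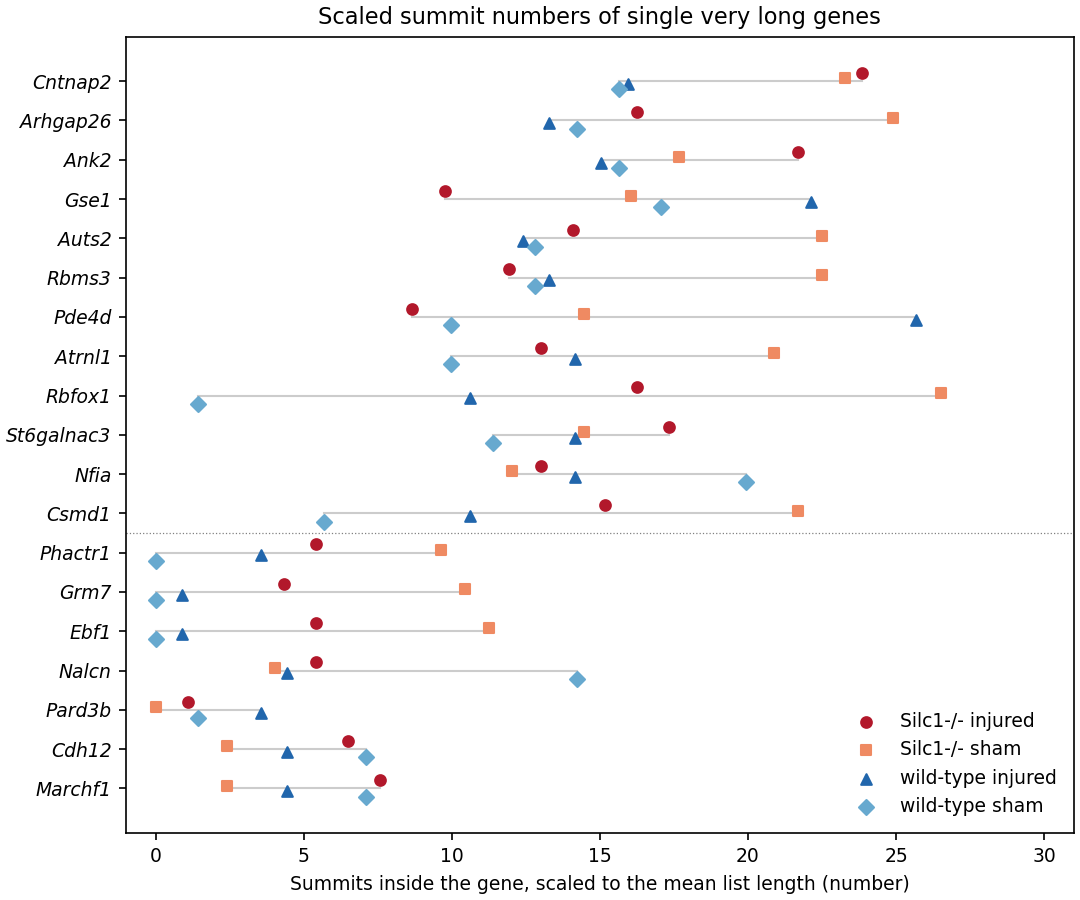
Summits inside single very long genes, scaled to the mean list length (x axis, number), in Silc1-/- injured, Silc1-/- sham, wild-type injured and wild-type sham, for the 12 genes with the most summits (above the dotted line) and for the genes with the highest and lowest sham ratios of Silc1-/- over wild type (below it). In Rbfox1, Csmd1, Grm7 and Ebf1 the Silc1-/- sham point lies far to the right of the wild-type sham point, and in Nalcn the wild-type sham point lies to the right of the rest.

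A small share of sites inside very long genes was found in all lists. After summits within 200 bp were joined, there were 6725 loci, of which 8.39% (7.75 to 9.07), or 564, had a summit in all 4 lists and 62.6% had one in a single list. Inside genes of 20 to 100 kb 12.6% of loci (12.05 to 13.3) were in all 4 lists, outside coding genes 11.01% (10.7 to 11.4), and within 1 kb of a coding gene end 45.9% (45.2 to 46.7). The 564 constant loci lay in 323 genes, at most 7 in 1 gene. Across these loci, which are not independent replicates, Spearman's rho of the scores between pairs of lists ranged from 0.60 to 0.74.

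Sites seen in a single list came most often from the longest list, that of Silc1-/- sham ganglia. There were 865 loci in Silc1-/- injured alone, 2163 in Silc1-/- sham alone, 971 in wild-type injured alone and 208 in wild-type sham alone. The Silc1-/- sham list, which holds 31.1% of all summits, gave 51.4% (49.9 to 52.9) of the single-list loci inside very long genes and 40.4% (39.9 to 40.9) of those over all loci. The wild-type sham list, with 17.6% of all summits, gave 4.94% and 8.49%. Loci found in both Silc1-/- lists and in neither wild-type list numbered 416, or 6.19%, against 114, or 1.70%, found in both wild-type lists and in neither Silc1-/- list. Outside coding genes these classes held 5.23% and 2.32% of loci. Silc1-/- sham and wild-type injured, whose lists are the longest, alone shared 421 loci inside very long genes, or 6.26%. Outside coding genes that pair held 6.36%. The share of the Silc1-/- pair is therefore not read as a pattern of genotype. The share of loci in all 4 lists moved with the settings: it was 10.4% at equal list length, 1.96% with summits joined within 50 bp and 18.2% at scores of at least 10.

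**Figure D5:**
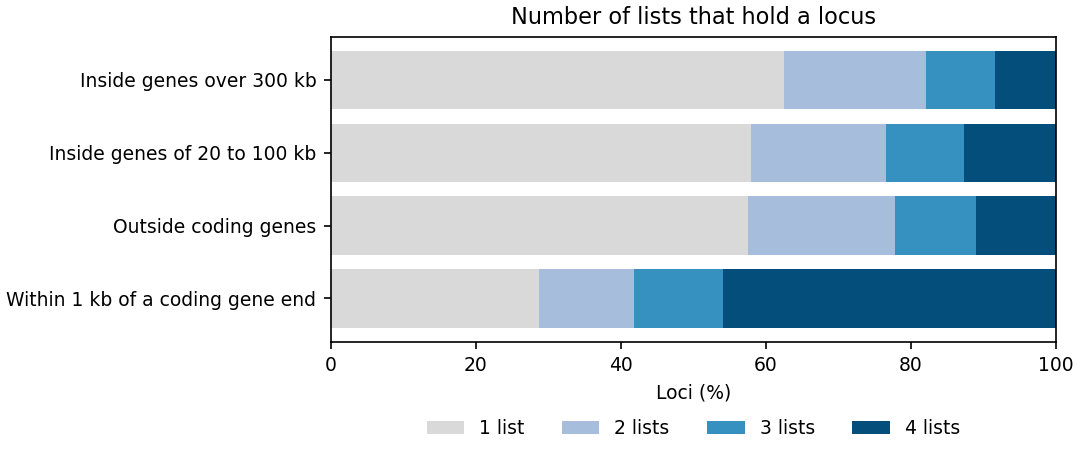
Share of loci (x axis, percent) with a summit in 1, 2, 3 or 4 lists, for loci inside genes over 300 kb, inside genes of 20 to 100 kb, outside coding genes and within 1 kb of a coding gene end. The share in all 4 lists is 8.39% inside the very long genes and 45.9% at gene ends.

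The constant loci with the highest scores were extreme. In Myo3a, a myosin gene of sensory hair cells, the locus at position 22589727 of chromosome 2 scored 2214 in Silc1-/- injured, 2065 in Silc1-/- sham, 2295 in wild-type injured and 2146 in wild-type sham, and 2 more constant loci lay within 2 kb of it. Cmss1 had a locus at position 57391507 of chromosome 16 with scores of 665, 799, 736 and 663 in the same lists. Gphn, which encodes the inhibitory synapse scaffold gephyrin, had one at position 78350985 of chromosome 12 that scored 350, 458, 359 and 330.0. Scores of this size were found at the same places in all 4 lists, against member medians of 3.73 to 4.60, and whether they reflect open chromatin or the mapping of reads was not tested. An isolated locus of the Silc1-/- sham list, with no other summit within 10 kb, lay in Astn2, a gene for migration of neurons along glia, at position 65654937 of chromosome 4 and scored 14.8.

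Cell markers varied between lists as well. Summits within 10 kb of 21 sensory neuron marker genes numbered 37 in Silc1-/- injured, 82 in Silc1-/- sham, 43 in wild-type injured and 39 in wild-type sham, and 15, 16, 17 and 15 of the genes had at least 1, so the ganglion's defining cell was represented in every list. Scaled to list length, the ratio of Silc1-/- over wild type for these markers was 1.19 in sham and 1.05 in injured ganglia. Of these 21 genes 3 are themselves very long, so the counts include members and are no separate measure beside them. Satellite glia and Schwann cell markers (15 genes) had ratios of 1.02 and 0.753, and macrophage markers (14 genes) 1.33 and 0.847. For endothelial and mural markers (12 genes) they were 2.26, from 12 and 3 summits, and 0.734. Fibroblast markers (7 genes) and skeletal muscle markers (10 genes) both had a sham ratio of 3.39, from 6 and 1 summits, and injured ratios of 0.874 and 1.43. Neutrophil markers (8 genes) had 5 summits in Silc1-/- injured, 8 in Silc1-/- sham, 20 in wild-type injured and 7 in wild-type sham. Injured over sham, in Silc1-/- and then wild type, was 0.609 and 0.686 for sensory neuron markers and 0.852 and 1.16 for glia. For macrophages it was 0.934 and 1.47, for neutrophils 0.843 and 1.78, and for endothelial and mural markers 1.01 and 3.11. Fibroblast markers gave 1.12 and 4.36, muscle 1.57 and 3.73, and B cells 0.771 and 1.12. Most of these rest on few summits. The part of cell composition in the differences inside very long genes was not tested. The RefSeq table lists no gene under the name Silc1, and the genotype labels were not checked here.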

How the data were processed

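ATAC-seq of dorsal root ganglia gave 12 libraries, 3 in each of 4 groups taken from the genotype and treatment labels. Each group has 1 deposited list of summits, so no library could be examined alone. Per the submitters' processing notes, Bowtie2, MACS2 and mm10 were used. No source used here gives versions, read filters, any shift for the transposase or the pooling of libraries. The authors' deposited score is the −log10 of a p-value, raw or adjusted, which no source states, and the smallest was just above 1.30. Read depth is unknown, and the length of a list may vary with it.

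Genes came from RefSeq (GRCm38.p6, the build of mm10). Strand and starts came from the RefSeq start windows, which covered 425 of the 557 genes. The 96 members lying in more than 1 very long gene were counted for each. A gene with 0 summits in a list was set at a floor of 3 counts for a nominal ratio, which is not the lower limit of an interval. Intervals are Wilson for shares, logarithmic for ratios of shares or of class sums and exact for single genes, and cover counting error only. Classes sum over genes.

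The members, gene classes, marker lists and the naming rule were chosen with earlier results of these data known. The rule named the 12 genes richest in summits, the extremes of each comparison, 3 genes per class, the 5 longest genes, the 5 longest without a summit, the 5 densest, and the highest-scoring loci; the text gives a part of these, and the 6 start windows were chosen after their values were seen. The steps were tested on simulated data, in which all 10700 planted summits and all 2000 planted loci were recovered. Alternatives were score minimums of 5 and 10, equal list lengths, other length and distance limits, other scalings, joining distances and a pseudocount of 0.5. Cuts at fewer top summits and scaling to the X summits were chosen after seeing the data. Python 3.11.15, numpy 2.4.6, pandas 2.3.3, scipy 1.17.1 and matplotlib 3.10.9 were used.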

Additional observations from a re-analysis of the deposited data

Results flagged for a closer look

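The log2 ratio of injured over sham for the share of summits inside very long genes was -0.26 in Silc1-/- and 0.34 in wild type. Opposite directions in the 2 genotypes drew attention to it. Coding genes of 100 to 300 kb had the same 2 directions, with ratios of 0.861 in Silc1-/- and 1.32 in wild type. The difference was not tested, and at the 27279 highest-scoring summits of each list both log2 ratios were just below 0. At the 10000 highest-scoring summits the ratio of shares was 1.35 in Silc1-/- and 0.879 (0.743 to 1.04) in wild type, each direction turned round. The wild-type interval includes 1. At scores of at least 10 both log2 ratios were above 0, at 0.29 in Silc1-/- and 0.17 in wild type.

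Of 404 genes measured for injury in both genotypes, 8 (1.98%) differed at least 2-fold in opposite directions, against 2.32% of all coding genes. There were 182 above 0 in wild type and below 0 in Silc1-/-, a count not made over all coding genes. Every one of the 8 was higher in wild-type injured than wild-type sham ganglia and lower in Silc1-/- injured than Silc1-/- sham ganglia, and none of these differences was tested. The log2 ratios in Silc1-/- and in wild type were -2.07 and 1.16 for Adgrv1, -1.23 and 2.44 for Car10, -1.06 and 2.18 for Cdk14, and -1.06 and 1.16 for Dner. They were -1.38 and 1.38 for Lpp, -1.38 and 2.44 for Otud7a, -1.43 and 1.35 for Prkg1, and -1.06 and 2.66 for Slc24a3. The counts are small: Otud7a had 2 summits in Silc1-/- injured, 9 in Silc1-/- sham, 5 in wild-type injured and 0 in wild-type sham.

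For genotype, 5 of 448 genes (1.12%) differed at least 2-fold in opposite directions between treatments, against 1.54% of all coding genes, again without a test. The log2 ratios of Silc1-/- over wild type in injured and in sham ganglia were -1.02 and 1.47 for Elmo1, -1.12 and 1.57 for Exoc4, -1.12 and 1.26 for Galnt18, -1.12 and 1.05 for Tnr, and 1.17 and -1.02 for Mageb18. Elmo1, which encodes a regulator of engulfment and cell movement, had 6 summits in Silc1-/- injured, 12 in Silc1-/- sham, 16 in wild-type injured and 2 in wild-type sham.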

How the results depend on the processing

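Both genotype ratios kept their direction under every setting run, and neither injury ratio did. As log2 ratios of shares, with Silc1-/- over wild type in sham ganglia first, the values were 0.66 at scores of at least 5, 0.37 at scores of at least 10, 0.41 at equal list lengths (27279 summits), 0.88 in genes over 500 kb, 0.50 scaled to summits off coding gene ends and 1.38 scaled to those at the ends. In injured ganglia the genotype ratio was 0.49 at scores of at least 10, 0.40 at equal lengths and 0.26 in genes over 500 kb. Injured over sham in Silc1-/- was -0.13 at scores of at least 5, 0.29 at scores of at least 10, which reversed it, -0.061 at equal lengths, and -0.18 and -0.46 scaled off and at gene ends. In wild type it was 0.17 at scores of at least 10, -0.053 at equal lengths, which reversed it, and 0.12 and 0.79 scaled off and at gene ends. The cause of these shifts was not tested. The share of loci in all 4 lists was 1.96% with summits joined within 50 bp, 11.6% within 500 bp, 10.8% and 18.2% at scores of at least 5 and 10, 10.4% at equal lengths and 7.66% in genes over 500 kb.

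Settings for the gene counts were chosen after seeing the data. At equal lengths 96 genes were higher and 30 lower in Silc1-/- sham than wild-type sham, 34 higher and 32 lower in wild-type injured than sham, and 34 higher in Silc1-/- injured than sham. Scaled off gene ends, 15, 23 and 38 were lower in Silc1-/- sham against wild-type sham, wild-type injured against sham and Silc1-/- injured against sham. Scaled at gene ends, the first of these comparisons had 279 higher and 1 lower, and wild-type injured against sham 131 and 4. A pseudocount of 0.5 gave 13 and 18 lower for the same comparisons. Shares of all coding genes were not counted for these gene-end and pseudocount values, nor for the 15. They therefore show nothing particular to very long genes. The wild-type sham list had the largest part of its summits at gene ends, 38.8%, so scaling to those raises every ratio over it.

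No paired analysis was possible because each group has a single list for its 3 libraries; for the same reason leaving out each replicate in turn gives no value. Unknown depth limits what an absent summit means.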
